A study of Mus musculus with 27 samples.

Results

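Matrix metalloproteinases and the tissue inhibitors that block them were followed in RNA-seq of mouse embryonic fibroblasts (MEFs) with and without the lncRNA locus *Firre*. The 10 genes were taken by their symbols from the table of expected gene counts, which lists 37310 genes. They comprise 7 proteases (*Mmp2*, *Mmp3*, *Mmp9*, *Mmp10*, *Mmp11*, *Mmp13* and *Mmp14*) and 3 inhibitors (*Timp1*, *Timp2* and *Timp3*), out of 27 genes of the table whose symbol is Mmp or Timp followed by a number. All 10 passed the filter on low counts and were among the 15387 genes tested.

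The 12 libraries form 4 groups of 3, which are female WT, female *Firre* KO, male WT and male *Firre* KO MEFs. MEFs are primary fibroblast cultures, and the study's methods describe their preparation from single mid-gestation embryos after the head, limbs and inner organs had been removed. The KO mouse carries a germ-line deletion, made by recombination between loxP sites, that removes the whole *Firre* gene, and no treatment is named for any RNA-seq group. The labels number the libraries of each group 1 to 3 without stating whether a number stands for an embryo, a culture or a repeat extraction, so the p-values below measure the spread between these libraries, which may be technical. Female and male libraries come from different embryos and cultures, and so do WT and KO libraries. Neither sex nor genotype can therefore be told apart from embryo and culture.

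Library totals lay between 42986516 and 65454660 expected counts. *Firre* (listed as 6720401G13Rik) had 90 to 307 expected counts in the wild-type libraries and 0 in each of the 6 KO libraries, where a count of 0 allows up to 3 counts. All 10 fibroblast markers examined were detected in every group, with a summed level of 9763 CPM or more in each library, where CPM are counts scaled by effective library size. Of these, 1 (*S100a4*) passed the thresholds given below between the sexes, lower in female WT MEFs by a log2 difference of -1.66. Of 9 macrophage markers tested, 8 were higher in female than in male MEFs in both genotypes at the thresholds given below, and their summed level was 37.7 to 116 CPM in female and 8.60 to 16.03 CPM in male libraries. Bone markers ran the other way, with sums of 107 to 161 CPM in female and 419.6 to 596 CPM in male libraries, of which *Spp1* made up most, and 1 of 5 tested bone markers passed in WT and 2 in KO MEFs. Some epithelial markers (4 of 6 tested higher in female WT and 1 in female KO MEFs) and muscle markers (3 and 4 of 7) also passed. No endothelial or cartilage marker passed, which does not mean that none differed. The summed endothelial markers were 25.0 to 35.4 CPM in female and 17.1 to 23.3 CPM in male libraries. In bulk RNA fewer cells of a type and less RNA per cell cannot be told apart.

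Matrix metalloproteinases are zinc-dependent endopeptidases that cleave collagens, proteoglycans, adhesion molecules and growth factor carriers outside the cell. Most are secreted as inactive proenzymes, in which a cysteine of the prodomain covers the catalytic zinc (the cysteine switch), and are activated when the prodomain is removed. The tissue inhibitors of metalloproteinases (TIMPs) bind the active site, and TIMP2 also takes part in activation, since a complex of TIMP2 with the membrane-bound enzyme MMP14 recruits the proenzyme of MMP2 to the cell surface. In fibroblasts and other stromal cells the stromelysin and collagenase genes are known as inducible genes that answer to growth factors, cytokines and the transcription factor AP-1, whereas MMP2, MMP14 and TIMP2 are expressed more constitutively. TIMP3 differs from the other inhibitors in being held in the extracellular matrix.

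The stromelysin genes *Mmp3* and *Mmp10* and the collagenase gene *Mmp13* lie on chromosome 9 of the build mm9, within a cluster of 10 Mmp genes that spans 427072 bases (chr9:7272514-7699585). *Mmp13* (ENSMUSG00000050578.9, chr9:7272514-7283333), *Mmp3* (ENSMUSG00000043613.7, chr9:7445822-7455972) and *Mmp10* (ENSMUSG00000047562.2, chr9:7502352-7510238) are all on the plus strand. Their coding sequences are similar enough to affect counting: those of *Mmp3* and *Mmp10* are identical at 1138 of 1426 aligned bases (79.8%), and 140 of the 1391 windows of 50 bases in *Mmp3* occur unchanged in *Mmp10*. The longest identical run has 104 bases across exons 2 and 3 of both genes (chr9:7447092-7447285 in *Mmp3*, chr9:7503305-7503498 in *Mmp10*). It is shown because a read from it cannot be assigned to either gene, and the capitals mark the 21 bases that encode the cysteine switch of the prodomain.
Shared run of Mmp3 and Mmp10: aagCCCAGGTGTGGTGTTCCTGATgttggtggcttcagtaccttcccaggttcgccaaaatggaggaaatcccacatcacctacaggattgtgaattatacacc

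RSEM divides such reads between the genes in fractions. Both genes had fractional expected counts in 11 of 12 libraries, whereas their sum was a whole number, within 0.01, in all 12. The share of this sum given to *Mmp3* ranged from 15.9% to 56.7% of 66 to 357 counts. Values of *Mmp3* and *Mmp10* are therefore uncertain singly wherever they are given below, and their sum is given for the comparisons within and between the sexes.

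Promoter sequences of 8 of the 10 genes were found in RefSeq (build GRCm38.p6), as windows of 250 bases before to 50 bases after the annotated start. *Mmp2* and *Mmp9* had no entry. The AP-1 motif TGANTCA, which reads the same on both strands, occurs in the windows of *Mmp3*, *Mmp10* and *Mmp13* and in none of the other 5, compared with 7.81% of all 32851 windows. The same 3 windows hold the TATA box TATAAA (searched on both strands), which is found in 13.6% of all windows. The GC box GGGCGG (both strands) occurs in the other 5, those of *Mmp11*, *Mmp14*, *Timp1*, *Timp2* and *Timp3*, and in 35.7% of all windows. The 100 bases before the start are shown for the 3 clustered genes and for *Mmp14* and *Timp1*, the most abundant protease and inhibitor per kb of exon, with the motifs in capitals.
Mmp3 (chr9:7445722-7445821, plus strand): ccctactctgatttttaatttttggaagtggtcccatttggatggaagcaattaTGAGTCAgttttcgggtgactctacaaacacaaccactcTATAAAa
Mmp10 (chr9:7502242-7502341, plus strand): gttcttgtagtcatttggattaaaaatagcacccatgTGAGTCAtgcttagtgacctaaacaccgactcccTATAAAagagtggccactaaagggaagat
Mmp13 (chr9:7272414-7272513, plus strand): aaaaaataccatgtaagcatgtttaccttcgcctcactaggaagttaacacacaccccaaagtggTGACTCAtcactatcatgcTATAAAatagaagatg
Mmp14 (chr14:54431498-54431597, plus strand): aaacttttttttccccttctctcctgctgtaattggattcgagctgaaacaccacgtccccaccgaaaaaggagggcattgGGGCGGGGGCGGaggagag
Timp1 (chrX:20870066-20870165, plus strand): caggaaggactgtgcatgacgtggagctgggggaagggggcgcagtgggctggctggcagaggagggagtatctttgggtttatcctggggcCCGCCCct

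The first bases of the AP-1 motifs are at positions -46 (*Mmp3*), -63 (*Mmp10*) and -35 (*Mmp13*) relative to the annotated start. These matches describe the letters only, and binding of a factor was not measured here.

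The inhibitor genes are spread over other chromosomes. *Timp1* (ENSMUSG00000001131.5, chrX:20447292-20451861) lies inside *Syn1* on the opposite strand without exonic overlap, and *Timp3* (ENSMUSG00000020044.7, chr10:85763117-85812251) lies inside *Syn3*, also on the opposite strand, with 1733 exonic bases in common. The strand of the reads is not given in the sources used here, so reads of *Timp3* and *Syn3* in that stretch cannot be told apart, but *Syn3* was at most 0.69 CPM in any library. *Timp2* (ENSMUSG00000017466.3) is at chr11:118162383-118217054. Of the other proteases, *Mmp2* (ENSMUSG00000031740.7) is at chr8:95351227-95377316, *Mmp9* (ENSMUSG00000017737.2) at chr2:164766280-164781350 and *Mmp14* (ENSMUSG00000000957.8) at chr14:55050441-55060095. *Mmp11* (ENSMUSG00000000901.8, chr10:75385967-75400678) shares 73 exonic bases with *Gm867* on the same strand.

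MEFs expressed the inhibitors and the enzymes of the MMP2 activation complex at high levels and the inducible proteases at very low levels. Levels were compared between genes per kilobase of merged exon (CPM per kb, mean of the 12 libraries). *Timp1* was highest at 374 CPM per kb, above 99.1% of the tested genes, followed by *Timp2* (209), *Mmp14* (207), *Mmp2* (95.1) and *Timp3* (57.4). *Mmp11*, also called stromelysin 3, stood at 8.86 CPM per kb and the gelatinase gene *Mmp9* at 2.19. *Mmp10* (1.03), *Mmp3* (0.882) and *Mmp13* (0.642) were lowest, and *Mmp13* was above only 24.3% of the tested genes.

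Neighbours in this order were not always separated. *Timp1* exceeded *Timp2*, *Mmp14* exceeded *Mmp2*, *Timp3* exceeded *Mmp11* and *Mmp11* exceeded *Mmp9* in all 12 libraries, with ranges that did not overlap. *Timp2* was above *Mmp14* per kb in only 5 of 12 libraries, and the ranges of *Mmp10*, *Mmp3* and *Mmp13* overlapped. Together, *Mmp2* and *Mmp14* made up 94.1% to 96.3% of the summed protease level per kb in each library. Of the rest of the cluster on chromosome 9, *Mmp12*, the macrophage elastase gene, was at 0.134 to 0.215 CPM per kb, *Mmp1a*, *Mmp1b*, *Mmp8* and *Mmp27* had 7 counts or fewer in any library, and *Mmp7* and *Mmp20* had 0 in all 12, which allows up to 0.0463 to 0.0701 CPM by library. These limits cover counting error only.

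**Figure D1:**
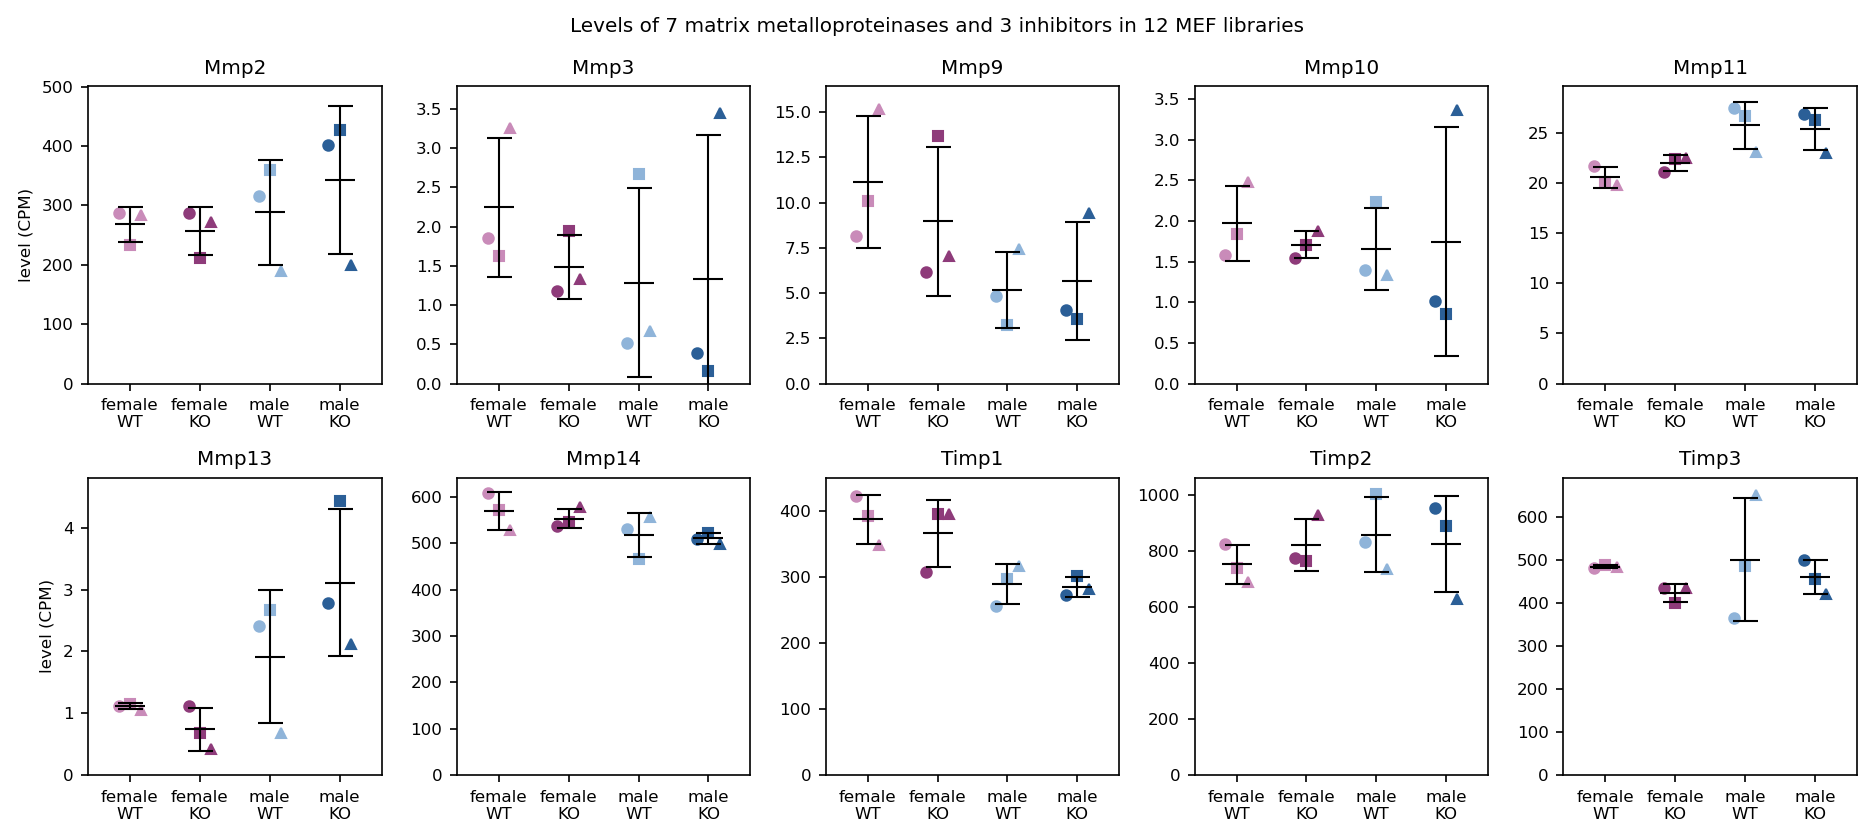
Level of each gene in CPM (linear axes from 0) in the 4 groups, with circles, squares and triangles for the libraries numbered 1, 2 and 3 and black bars for the mean ± SD of 3 libraries (the bar of *Mmp3* in male KO MEFs continues below 0). *Mmp14* stays between 467 and 609 CPM in all 12 libraries, whereas *Mmp3* runs from 0.161 to 3.45 CPM, and the triangles of the male groups are low for *Mmp2*, *Mmp13* and *Timp2* and high for *Mmp9*.

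The balance of inhibitors and proteases was similar in the 4 groups. The ratio of the summed inhibitor level to the summed protease level, both in CPM per kb, was 2.19, 2.23 and 2.02 in the female WT libraries and 1.91, 2.35 and 2.27 in the female KO libraries. In male MEFs the ratio was 1.70, 2.08 and 2.16 in the WT and 1.79, 1.76 and 1.94 in the KO libraries. Inhibitor transcripts were thus more abundant per kb than protease transcripts in each of the 12 libraries. The group means were 2.14 ± 0.113 (female WT), 2.18 ± 0.232 (female KO), 1.98 ± 0.245 (male WT) and 1.83 ± 0.0965 (male KO; SD, n = 3 in each). The libraries of KO and WT overlapped in both sexes, and so did those of female and male WT MEFs, while 2 of the 3 female KO libraries lay above every male KO library and the remaining 1, at 1.91, lay below the highest male KO library. The ratio is given as a description without a test.

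The shares of single genes in these sums are given by library. *Timp1* made up 62.3% to 63.8% of the inhibitor level in female WT and 51.2% to 56.9% in male WT libraries, and *Timp2* made up 27.5% to 28.4% and 30.3% to 39.6%, so that neither share overlapped between these groups. In KO MEFs both shares overlapped between the sexes, with 57.8% to 64.4% in female and 49.9% to 59.7% in male libraries for *Timp1* and 28.5% to 33.2% and 30.5% to 40.0% for *Timp2*. Within the proteases the ratio of *Mmp14* to *Mmp2* was 2.17 to 3.02 in the 6 female libraries. In male libraries it was 1.43 to 1.96 in those numbered 1 and 2 of both genotypes and 3.45 (WT) and 2.94 (KO) in those numbered 3, so that the male range encloses the female range.

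**Figure D2:**
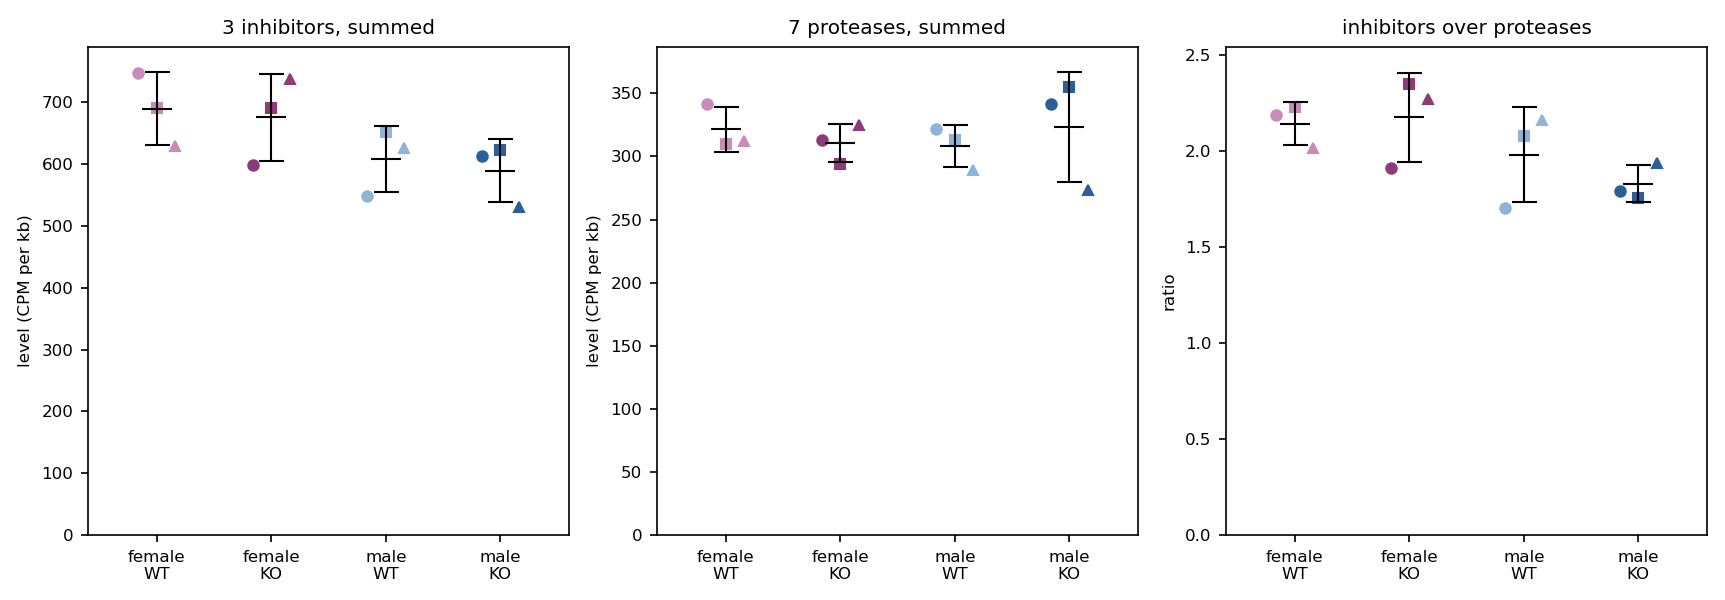
Summed level of the 3 inhibitors and of the 7 proteases (CPM per kb of merged exon, from 0) and the ratio of the first to the second, by group, with circles, squares and triangles for libraries 1, 2 and 3 and bars for the mean ± SD. The ratio lies between 1.70 and 2.35 in all 12 libraries, and KO overlaps WT in each sex.

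The first comparison asks whether loss of *Firre* changes these genes within each sex. None of the 10 genes passed the test in either sex. In female MEFs 0 of 10 passed the thresholds, which are an adjusted p (from edgeR's quasi-likelihood test, Benjamini-Hochberg method) below 0.01 together with a log2 fold change beyond 1 in either direction, compared with 1 of all 15387 tested genes (0.0065%), which was *Firre* itself. In male MEFs the counts were again 0 of 10 and *Firre* alone (0.0065%), and the same holds for the mean of both sexes (0.0065%). At an unadjusted p under 0.05, 0 of the 10 genes passed in female MEFs (7.55% of all tested genes), 0 in male MEFs (2.06%) and 0 for the mean of both sexes (6.24%), and DESeq2 called none of the 9 members to which it gave an adjusted p in the 3 comparisons (it gave none to *Mmp3* in any comparison). The count at an unadjusted p under 0.05 depended on the libraries used. In female MEFs it was 1 when only the 6 female libraries were fitted (1842 of 14715 tested genes). It was also 1 there without both male libraries numbered 3, an alternative chosen after seeing the data (*Timp3*; 2235 of 15503). In male MEFs the count depended on single libraries. Without the male KO library numbered 3 it was 3 of 10 in male MEFs (*Mmp2*, *Mmp3* and *Mmp10*; 4.71% of tested genes) and 2 of 10 for the mean of both sexes (*Mmp3* and *Mmp10*; 9.84%). Without the male WT library numbered 1 it was 1 in each (*Timp3*), beside 304 of 15645 tested genes in male MEFs and 1056 for the mean. No member was past the thresholds. The median log2 fold change of the 10 genes was -0.14 in female and -0.0042 in male MEFs, beside medians of -0.00032 and -0.0041 over all tested genes.

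How tightly a change is bounded differed greatly between the members. *Mmp14*, the membrane-type enzyme that activates MMP2, was 609, 572 and 528 CPM in female WT and 538, 545 and 578 CPM in female KO libraries, and 530.1, 467 and 558 CPM in male WT and 509.7, 523 and 499 CPM in male KO libraries. The groups overlap, and the log2 fold change was -0.04 (95% interval -0.19 to 0.11) in female and -0.02 (-0.17 to 0.13) in male MEFs. For *Mmp11* the intervals were similarly narrow, from -0.08 to 0.27 in female and from -0.19 to 0.15 in male MEFs. Those of *Timp1* ran from -0.32 to 0.15 and from -0.26 to 0.21, and those of *Timp2* from -0.21 to 0.47 and from -0.39 to 0.28. *Timp2* was 827, 739.8 and 692 CPM in female WT and 775, 766 and 930.2 CPM in female KO libraries, and 835, 1004 and 738 CPM in male WT and 956, 889.9 and 631 CPM in male KO libraries, and the groups overlapped. For these genes a change of 2-fold lies outside the interval.

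*Timp3* was the 1 member whose groups did not overlap, compared with 19.2% of tested genes in female MEFs. It was 481, 490.0 and 485 CPM in female WT and 436, 399 and 436 CPM in female KO libraries, a log2 fold change of -0.20 (-0.53 to 0.14, adjusted p = 0.796). Without both male libraries numbered 3, an alternative chosen after seeing the data, this change was also -0.20. Its unadjusted p was then 0.0455 and its adjusted p 0.338 (edgeR). The female WT libraries lay close together, with a coefficient of variation of 0.892%, against 4.99% in the female KO libraries. In male MEFs the WT libraries spread from 366 to 651 CPM and enclosed the KO libraries (501, 456 and 422 CPM), and 0 of the 10 members had groups that did not overlap (5.3% of tested genes). The fitted change was -0.12 on the log2 scale (-0.46 to 0.21, adjusted p = 1.00).

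*Mmp2*, which encodes gelatinase A, was 287, 234 and 284 CPM in female WT and 287, 211 and 272 CPM in female KO libraries (log2 fold change -0.06, -0.68 to 0.55). In male MEFs it was 316, 360 and 189 CPM in the WT and 402, 427 and 199 CPM in the KO libraries (0.25, -0.36 to 0.86). KO and WT overlapped in both sexes, and in both male groups the library numbered 3 was well below the others. Paired by library number, since the male libraries of one number deviate together, *Mmp2* was higher in the KO library of each of the 3 male pairs. A fit of the male libraries with the number as a block, chosen after seeing the data, gave 0.23 (SE 0.0572) on the log2 scale. Its unadjusted p was 0.00909 and its adjusted p 1.00 (edgeR). The pairing was read from these same libraries, and the p does not allow for that choice.

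The low genes bound a change poorly. The stromelysin pair summed to 3.44, 3.47 and 5.74 CPM in female WT and 2.72, 3.65 and 3.21 CPM in female KO libraries. In male MEFs the sum was 1.91, 4.91 and 2.01 CPM in the WT and 1.40, 1.02 and 6.82 CPM in the KO libraries, so that 1 library of each male group held most of the signal. The log2 fold change of the sum was -0.41 (-1.76 to 0.95) in female and 0.05 (-1.30 to 1.40) in male MEFs, and *Mmp3* alone had intervals from -2.57 to 1.38 and from -1.99 to 2.01. Without the male libraries numbered 3, an alternative chosen after seeing the data, *Mmp3* was -2.56 and *Mmp10* -0.95 in male MEFs on the log2 scale, both with an adjusted p of 0.854, in place of 0.01 and 0.07.

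*Mmp13*, the interstitial collagenase of rodents, was 1.12, 1.15 and 1.05 CPM in female WT and 1.11, 0.686 and 0.420 CPM in female KO libraries, and 2.41, 2.66 and 0.675 CPM in male WT and 2.78, 4.43 and 2.12 CPM in male KO libraries. The estimates pointed in opposite directions, -0.59 (-1.69 to 0.52) in female and 0.69 (-0.29 to 1.68) in male MEFs. Leaving out 1 library moved them between -0.997 (without female KO 1) and -0.31 (without female KO 3) and between 0.30 (without male WT 3) and 1.004 (without male WT 2), and without male KO 2 the male estimate was 0.35. *Mmp13* too was higher in the KO library of each of the 3 male pairs, whereas *Mmp11* was lower in each. The blocked fit of the male libraries, chosen after seeing the data, gave 0.79 (SE 0.275) for *Mmp13*, with an unadjusted p of 0.031 and an adjusted p of 1.00 (edgeR). For *Mmp11* it gave -0.02 (SE 0.0437). The share of all tested genes that moved 1 way in all 3 pairs was not counted. For *Mmp13* the test of the difference between the sexes gave -1.28 (-2.76 to 0.20) with an unadjusted p of 0.0832 and an adjusted p of 1.00. With the block over all 12 libraries it gave -1.47 with an unadjusted p of 0.0179 and an adjusted p of 1.00. That block also pairs the female libraries by number, although same-numbered female WT and KO libraries deviated in opposite directions (correlations of -0.26 to -0.13). No conclusion is drawn from its p. At an unadjusted p under 0.05 the blocked fits thus gave 1 member in male MEFs over all 12 libraries (*Mmp13*; 2.12% of all tested genes). With male libraries only they gave 2 (*Mmp2* and *Mmp13*; 3.82%), and for the difference between the sexes 1 (*Mmp13*; 3.36%). Without the block and with all 12 libraries, the test of this difference called 0 of the 10 members (0% of all tested genes). It gave 0 with an unadjusted p under 0.05 (3.19%), and DESeq2 called none of the 9 members with an adjusted p. The count at an unadjusted p was 1 without the female KO library numbered 1 (531 of 15647 tested genes) or the male WT library numbered 2 (531 of 15649). It was 2 without both male libraries numbered 3, an alternative chosen after seeing the data (*Mmp13* and *Timp3*; 1203 of 15503).

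**Figure D3:**
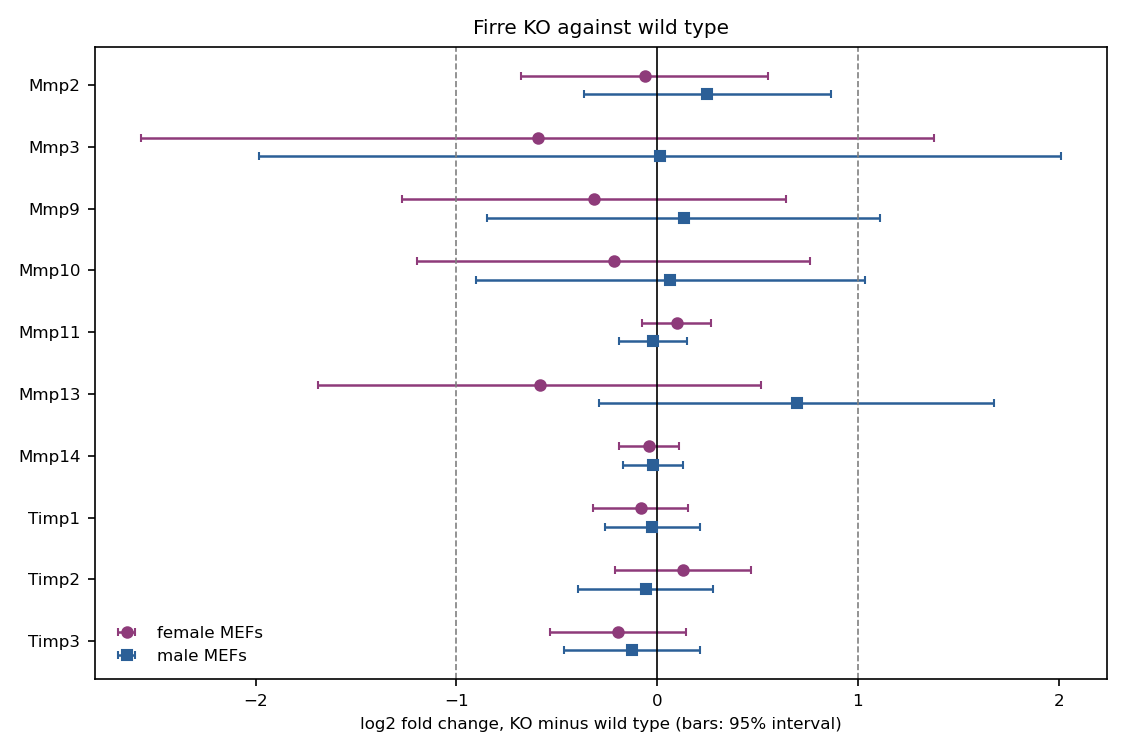
Log2 fold change of each gene, KO minus wild type, in female (circles) and male (squares) MEFs with 95% intervals from the edgeR fit over 12 libraries, where dashed lines mark a log2 fold change of 1 in either direction. All 20 intervals include 0, and they are narrow for *Mmp11*, *Mmp14* and *Timp1* and wide for *Mmp3*.

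The second comparison sets female against male MEFs within each genotype. It uses the same 12 libraries as the first, so the values of both are given side by side only. Many genes differed: 4.54% of the tested genes passed the thresholds in WT and 3.89% in KO MEFs. Among the 10 members, 0 passed in WT and 1 in KO MEFs, which was *Mmp13*. At an unadjusted p under 0.05, without a library left out, 3 members passed in WT (*Mmp9*, *Mmp11* and *Timp1*; 47.8% of all tested genes) and 3 in KO MEFs (*Mmp11*, *Mmp13* and *Timp1*; 47.9%). DESeq2 called 0 and 1 of 9 members, beside 899 and 781 of 24148 genes. These counts at an unadjusted p rose to 5 in WT MEFs without the male WT library numbered 3 (46.8% of tested genes). They rose to 7 in KO MEFs without the male KO library numbered 3 (47.6%). Without both, an alternative chosen after seeing the data, they were 7 in WT (52.7%) and 7 in KO MEFs (52.2%). Members whose groups did not overlap numbered 3 in WT (51.9% of tested genes) and 4 in KO MEFs (50.2%).

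*Mmp13* was lower in female than in male KO MEFs, with no overlap between the libraries listed above. Its level was 0.739 ± 0.348 CPM in female and 3.11 ± 1.19 CPM in male KO MEFs (SD, n = 3), a log2 difference of -2.07 (-3.14 to -1.004), which is 0.237 times the male level (edgeR, adjusted p = 0.00662). In WT MEFs the level was 1.11 ± 0.0486 CPM in female and 1.92 ± 1.08 CPM in male libraries, and the log2 difference of -0.79 (-1.83 to 0.24) did not pass (adjusted p = 0.207). It was -0.49 without the male WT library numbered 2 and -1.20 without the one numbered 3 (adjusted p = 0.0236). The male WT library numbered 3, at 0.675 CPM, lay below all 3 female WT libraries. The call in KO MEFs was lost, at an adjusted p of 0.0104 to 0.0293, when any 1 of the female WT libraries 1, 2 or 3, the female KO libraries 2 or 3 or the male KO libraries 1 or 2 was left out, and its log2 difference then ranged from -2.15 to -1.73. As *Mmp13* rested on 19 to 287 expected counts per library, counting error adds to its spread.

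*Timp1* and *Mmp11* differed by less than 2-fold, and their female and male libraries did not overlap in either genotype. *Timp1*, an inhibitor that is known to respond to growth stimuli, was 422, 392 and 349 CPM in female WT and 256, 296 and 316 CPM in male WT libraries. In KO MEFs it was 308, 395 and 395 CPM in female and 272, 301 and 281 CPM in male libraries. Every female library thus exceeded every male library of its genotype, by a log2 difference of 0.42 (0.18 to 0.66, adjusted p = 0.0105) in WT and 0.36 (0.13 to 0.60, adjusted p = 0.0208) in KO MEFs.

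*Mmp11* ran the other way, with 21.8, 20.1 and 19.9 CPM in female WT and 27.5, 26.7 and 23.1 CPM in male WT libraries. In KO MEFs it was 21.1, 22.4 and 22.5 CPM in female and 26.9, 26.3 and 23.0 CPM in male libraries, so that every female library lay below every male library of its genotype. The log2 difference was -0.33 (-0.50 to -0.15, adjusted p = 0.00737) in WT and -0.21 (-0.38 to -0.04, adjusted p = 0.0550) in KO MEFs. With an adjusted p under 0.05 and no limit on the fold change, the members called were *Mmp11* and *Timp1* in WT (38.7% of tested genes) and *Mmp13* and *Timp1* in KO MEFs (38.7%).

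*Mmp9*, a gelatinase known for its expression in macrophages and neutrophils, was 8.16, 10.1 and 15.2 CPM in female WT and 4.84, 3.23 and 7.44 CPM in male WT libraries. The groups did not overlap, and the log2 difference was 1.11 (0.14 to 2.09, adjusted p = 0.0671). In KO MEFs the libraries overlapped, at 6.16, 13.7 and 7.03 CPM in female and 4.05, 3.55 and 9.45 CPM in male MEFs, with a log2 difference of 0.67 (-0.30 to 1.64, adjusted p = 0.256), which was 0.22 without the female KO library numbered 2, 0.41 without the male KO library numbered 2 and 1.24 without the male KO library numbered 3. Of the other members, *Mmp14* was higher in each female KO than in each male KO library, with a log2 difference of 0.12 (-0.03 to 0.26, adjusted p = 0.196). *Mmp2*, *Mmp3*, *Mmp10*, *Timp2* and *Timp3* overlapped between the sexes in both genotypes, and the sum of *Mmp3* and *Mmp10* differed by 0.52 (-0.83 to 1.87) in WT and 0.06 (-1.30 to 1.43) in KO MEFs on the log2 scale.

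**Figure D4:**
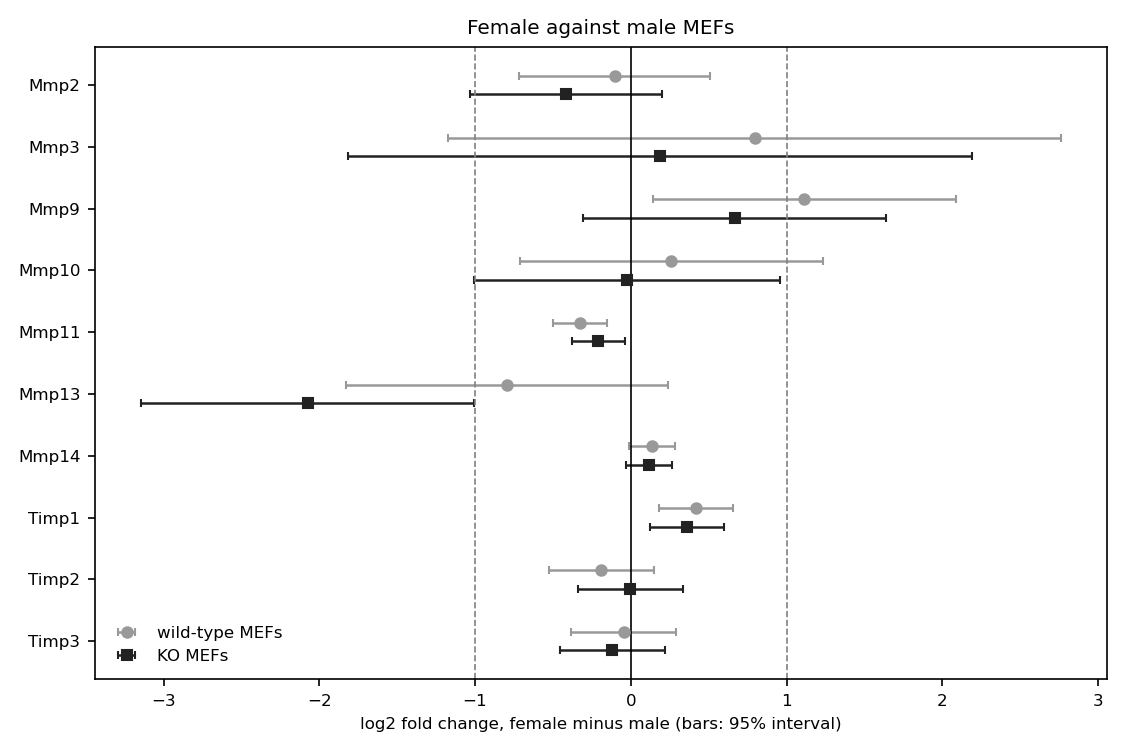
Log2 fold change of each gene, female minus male, in WT (grey circles) and KO (black squares) MEFs with 95% intervals from the edgeR fit over 12 libraries, where dashed lines mark a log2 fold change of 1 in either direction. *Timp1* lies above 0 and *Mmp11* below 0 in both genotypes, and *Mmp13* in KO MEFs, at -2.07, has the interval furthest from 0.

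Markers of other cell types also differed between the sexes. The summed macrophage markers were 83.4, 47.7 and 78.7 CPM in female WT and 53.9, 116 and 37.7 CPM in female KO libraries, beside 14.5, 10.0 and 11.3 CPM in male WT and 8.60, 16.03 and 13.3 CPM in male KO libraries. Within female KO MEFs the library highest in macrophage markers, number 2, was also highest in *Mmp9*, whereas in female WT MEFs number 1 was highest in the markers and number 3 in *Mmp9*. In male MEFs *Mmp9* was highest in the libraries numbered 3, in which the macrophage markers were not the highest. None of the 9 macrophage markers of the table was at 0 in a group. The 6 epithelial markers summed to 24.9, 34.4 and 64.1 CPM in female WT and 21.5, 22.04 and 20.2 CPM in female KO libraries, and to 7.9997, 5.47 and 13.4 CPM in male WT and 5.97, 5.89 and 14.9 CPM in male KO libraries. In each of the 4 groups the library highest in epithelial markers was also the highest in *Mmp9*, although the female KO libraries differed little in these markers. The part of macrophage and epithelial markers in the level of *Mmp9* was not tested.

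*Mmp13* is known from hypertrophic cartilage and bone and as an AP-1 target, and both kinds of genes were set beside it. Among the bone markers, *Spp1* was lower in female than in male MEFs in both genotypes (log2 difference -2.04 in WT and -1.94 in KO), and *Sp7* was lower in KO (-2.62). The male KO library numbered 2 had the highest summed bone markers (596 CPM), the highest *Ibsp* (12.6 CPM, beside at most 1.502 CPM in any other library) and the highest *Mmp13* (4.43 CPM) of all 12 libraries. Among the other libraries the order differed. The male WT library numbered 3 had the highest summed bone markers of its group (451 CPM) and the lowest *Mmp13* (0.675 CPM), the male KO library numbered 3 had more bone markers than number 1 (475 against 419.6 CPM) with less *Mmp13* (2.12 against 2.78 CPM), and the female WT library numbered 3 had the highest bone markers (129.6 CPM) and the lowest *Mmp13* (1.05 CPM) of its group. The most abundant of 7 AP-1 genes were *Fosl2* (172 to 247 CPM) and *Jun* (104 to 165 CPM), and 1 of the 7 passed both thresholds between the sexes, *Fos*, which was lower in female MEFs by a log2 difference of -2.12 in WT and -2.48 in KO (edgeR, adjusted p = 0.00217 and 0.00102), with 3.52 to 5.80 CPM in female and 11.3 to 33.8 CPM in male libraries. *Fos* was lowest among male libraries in both numbered 3 (11.3 and 11.8 CPM), as was *Mmp13*, and in female KO libraries *Fos* was 4.35, 4.70 and 3.52 CPM, lowest in number 3 as was *Mmp13*, but highest in number 2, where *Mmp13* was not. In female WT MEFs number 3 was highest in *Fos* and lowest in *Mmp13*. Of the other AP-1 genes, *Jun* (-0.38), *Fosl2* (-0.38) and *Junb* (-0.83) were lower in female WT MEFs with an adjusted p of 0.00266, 0.00353 and 0.00829 (edgeR) but within the fold limit. The summed AP-1 genes did not overlap between the sexes, at 384 to 477 CPM in female and 511 to 653 CPM in male libraries. The part of cartilage markers, of bone markers and of AP-1 in the level of *Mmp13* was not tested.

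**Figure D5:**
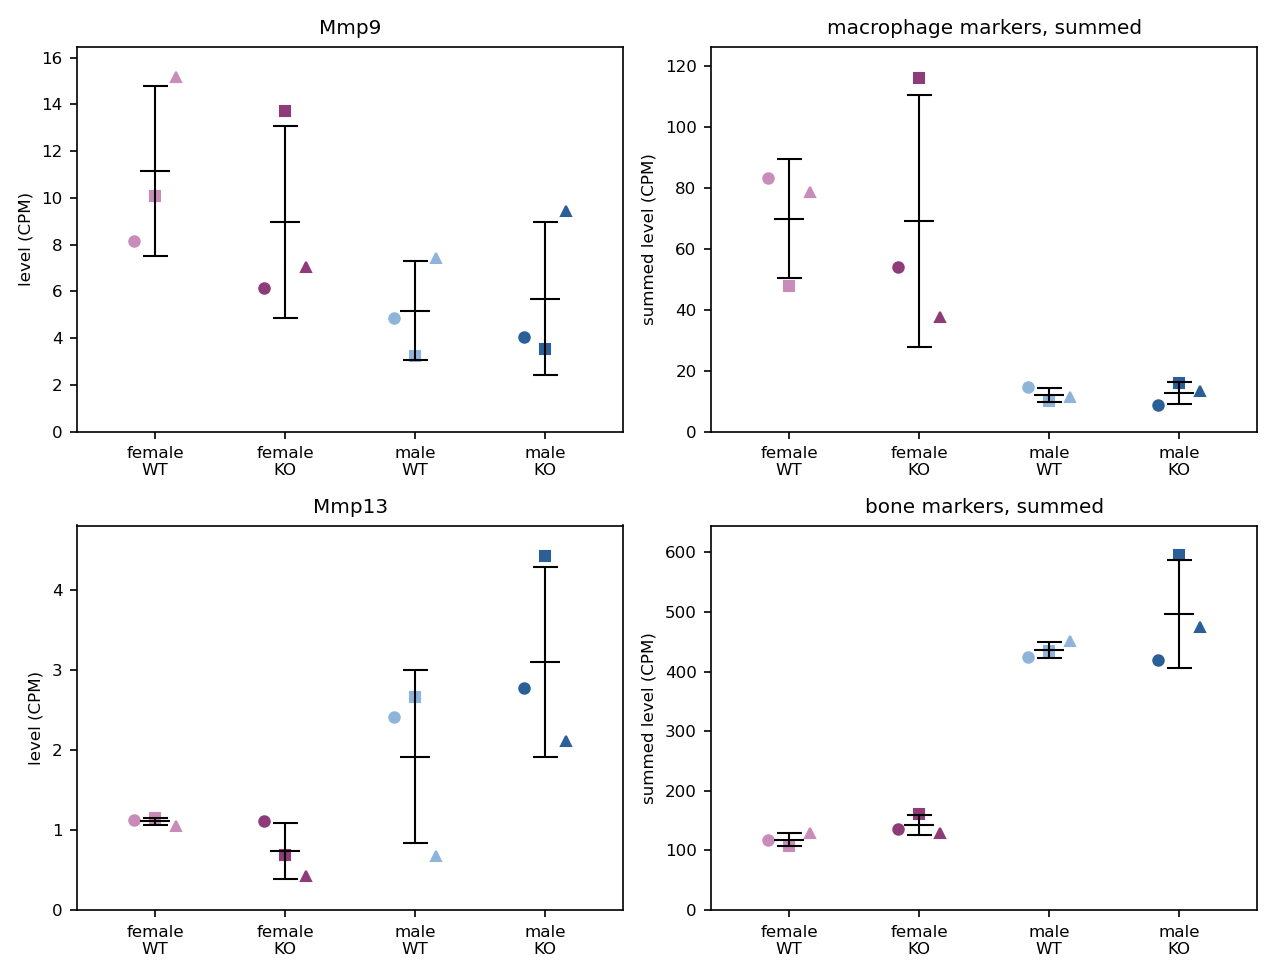
*Mmp9* beside the summed level of 9 macrophage markers and *Mmp13* beside the summed level of 6 bone markers, in CPM from 0, with circles, squares and triangles for libraries 1, 2 and 3 and bars for the mean ± SD of 3 libraries. Macrophage markers lie at 37.7 CPM or more in every female and at 16.03 CPM or less in every male library, while *Mmp9* overlaps between female and male KO MEFs.

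Several members varied more between libraries of one group than most genes do. The biological coefficient of variation, the part of the spread between replicates that counting does not explain, was 0.747 for *Mmp3*, 0.394 for *Mmp13*, 0.375 for *Mmp10*, 0.371 for *Mmp9* and 0.238 for *Mmp2*, compared with a median of 0.0895 over the tested genes. *Mmp14* (0.0647) and *Mmp11* (0.0718) were below that median, and *Timp1* (0.096), *Timp2* (0.134) and *Timp3* (0.134) were above it. In male MEFs part of this spread followed the library number. The libraries numbered 3 had 0.56 (WT) and 0.48 (KO) times the mean *Mmp2* level of the libraries numbered 1 and 2, 0.803 and 0.683 times for *Timp2*, 0.266 and 0.589 times for *Mmp13* and 1.84 and 2.49 times for *Mmp9*. *Mmp3* did not follow this pattern, at 0.42 times in WT and 12.52 times in KO. Without both male libraries numbered 3, an alternative chosen after seeing the data, *Mmp2* was lower in female than in male KO MEFs. The log2 difference was -0.69 (edgeR, adjusted p = 0.00206) in place of -0.42 (adjusted p = 0.264), which still is under the fold threshold. The libraries left out were the lowest of their groups in *Mmp2*, so a larger difference follows in part from that choice.

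Other genes of extracellular proteolysis gave a wider view of the pathway. In KO against WT MEFs none of the tested genes among 16 other Mmp genes (9 tested), 7 other inhibitors (5), 8 genes of the plasminogen system (6), 8 genes of activation and clearance (8) and 14 ADAM and ADAMTS genes (14) passed the thresholds in either sex. The smallest adjusted p of these lists was 0.594 in female and 1.00 in male MEFs. Between the sexes, *Mmp19* and *Mmp28* were lower in female MEFs in both genotypes (log2 differences of -1.09 and -1.40 in WT and -1.35 and -1.22 in KO), and *Mmp15*, a membrane-type enzyme, was higher in female KO MEFs (1.02, edgeR, adjusted p = 0.00661). *Adamts15* was higher in female WT MEFs (2.08). No gene of the other inhibitors, the plasminogen system or the activation and clearance list passed between the sexes. Of the activation and clearance list, the hyaluronan receptor gene *Cd44* was the most abundant, at 1088 to 1623 CPM. *Lrp1*, whose product takes up proteases and their inhibitor complexes from outside the cell, was at 724 to 1259 CPM, the urokinase gene *Plau* at 191 to 293 CPM and *Pcolce*, an enhancer of procollagen processing, at 231 to 301 CPM. *Tfpi2* was at 6.52 to 28.7 CPM. Of the proteases, *Adam9* was at 549 to 738 CPM and *Adam19* at 350.4 to 473 CPM, whereas *Mmp16* and *Mmp23*, the most abundant other Mmp genes, were at 23.4 to 42.3 and 9.64 to 19.2 CPM. The Timp host genes *Syn1*, *Syn2* and *Syn3* summed to 2.74 to 3.43 CPM, and none of them passed the thresholds in any comparison.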

How the data were processed

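Reads were filtered and mapped with Bowtie 2 and quantified with RSEM 1.2.29 by the authors, who deposited the resulting unscaled expected counts of 12 libraries (build mm9). Between 14.7% and 16.8% of them are not whole numbers. The rounded values entered edgeR's quasi-likelihood test (edgeR 4.0.16 under R 4.3.3) with TMM scaling, filterByExpr, 1 mean per sex and genotype, 8 residual degrees of freedom and Benjamini-Hochberg adjustment over 15387 genes. The thresholds, an adjusted p below 0.01 and a log2 fold change beyond 1 in either direction, are those of the study. Levels per kb used merged exons of the mm9 annotation, which held all 37310 identifiers. Promoters came from RefSeq, whose build differs.

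The members and lists were chosen with earlier results of these data known. By the rule for named genes, all 10 members were described in every comparison, and of each other list the genes past the thresholds and the 2 most abundant, except for an item that is not reported here. Alternatives were DESeq2 1.42.0, other scalings, filters and thresholds, a replicate block, fits of 6 libraries and each library left out.

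Replicates differed by more than sampling noise (a chi-square of 7.55 or more for each degree of freedom). Deviations from group means correlated between WT and KO libraries of the same number in male MEFs (0.24 to 0.50 in the 3 pairs) but not in female MEFs (-0.26 to -0.13), so the numbers were taken to pair the male libraries only. This is read from the data, and it separates number 3 from the others more clearly than 1 from 2 (0.22 for WT 1 with KO 2 against 0.24 with KO 1). The Hi-C maps of C2C12 cells and the ChIP-seq samples were not used here.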

Additional observations from a re-analysis of the deposited data

How the results depend on the processing

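With 3 libraries per group, changes of the low genes are poorly bounded, and neither sex nor genotype can be told apart from embryo and culture. Of 878 values of the members' fold changes under alternatives, 818 kept their direction and their side of the threshold. No member was called in KO against wild-type MEFs, in the difference between the sexes or in female against male WT MEFs under any alternative with the fold limit. In KO MEFs 1 member was called between the sexes, and 0 to 1 when single libraries were left out. With an adjusted p under 0.05 and no fold limit, 2 members were called between the sexes in WT and 2 in KO MEFs. The causes of the changes given here were not tested.

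With the replicate block, which keeps libraries of the same number together, 1 member was called in female against male KO MEFs and 0 elsewhere, so the pairing changed no call of a member. Over all genes the block called 0 in female and 0 in male KO against WT MEFs in place of 1 each. The gene lost in both sexes was *Firre*, which had 0 counts in every KO library, so a count of 0 members under the block says little. DESeq2 called 4, 2 and 3 genes in female MEFs, male MEFs and the mean of both and 1 for the difference between the sexes. In male KO against WT MEFs the block turned *Mmp3* to -0.28 (-0.44 with male libraries only) and *Mmp10* to -0.10 (-0.14), and between the sexes in KO MEFs it turned *Mmp10* to 0.10 and *Timp2* to 0.0191, all as log2 fold changes without a call.

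Without both male libraries numbered 3, chosen after seeing the data, the log2 fold change in male MEFs turned to -2.56 for *Mmp3*, -0.0914 for *Mmp9*, -0.95 for *Mmp10*, 0.0474 for *Mmp14*, 0.0483 for *Timp1*, 0.00205 for *Timp2* and 0.16 for *Timp3*. Between the sexes *Timp3* turned to 0.19 in WT and *Mmp10* to 0.86 in KO MEFs. In KO MEFs the summed *Mmp3* and *Mmp10* gave 0.0642, and *Timp2*, close to 0, turned to 0.00294 with DESeq2 size factors, 0.0034 with only 6 libraries and 0.00233 in DESeq2.

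Leaving out single libraries changed the sign of 16 uncalled fold changes. In female KO against WT MEFs the log2 values ran from -0.15 to 0.0604 for *Mmp2*, -0.0938 to 0.00921 for *Mmp14* and -0.15 to 0.0277 for *Timp1*. In male MEFs they ran from -2.26 to 1.15 for *Mmp3*, -0.44 to 0.49 for *Mmp9*, -0.82 to 0.40 for *Mmp10*, -0.0945 to 0.0430 for *Mmp11*, -0.0913 to 0.0351 for *Mmp14*, -0.11 to 0.0431 for *Timp1*, -0.18 to 0.10 for *Timp2* and -0.31 to 0.11 for *Timp3*. Between the sexes in WT MEFs they ran from -0.33 to 0.0861 for *Mmp2* and -0.23 to 0.19 for *Timp3*, and in KO MEFs from -0.36 to 2.45 for *Mmp3*, -0.36 to 0.86 for *Mmp10* and -0.17 to 0.11 for *Timp2*.

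The log2 difference of the ratio of inhibitors to proteases moved with its definition. In female KO against WT MEFs it was 0.02, and 0.21 from means of log2 levels. In male MEFs it was -0.11, and -0.26 without *Mmp14*. Between the sexes in WT MEFs it was 0.12, but -0.0735 from CPM without length, -0.17 from means of log2 levels and -0.22 without *Timp1*. In KO MEFs it was 0.25, and 0.11 from CPM without length, 0.0362 without *Timp1* and 0.53 without *Mmp14*. Leaving out single libraries gave -0.0392 to 0.11 and -0.21 to -0.0426 for KO against WT in female and male MEFs, and 0.0138 to 0.19 and 0.19 to 0.34 between the sexes in WT and KO MEFs.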

Other observations

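For each member the tested genes with the most similar pattern were listed, as Pearson's r of log2(CPM + 1) over the 12 libraries, which share depth, sex and library number, so these values are descriptions. *Mmp3* and *Mmp10* were among each other's nearest genes (r = 0.93). The other neighbours of *Mmp3* were *Hoxd11* (0.95) and *Penk* (0.91), and those of *Mmp10* were *Prr9* (0.90) and *Elavl2* (0.87). *Mmp14* was nearest to the genes *Tpm1* (0.92), *Nid1* (0.92) and *Actn1* (0.92), which encode parts of the actin cytoskeleton and the basement membrane. *Timp1* was nearest to *C1ql3*, *Cav1* and *Pdzd11* (0.95 to 0.96), *Mmp2* to *Myo18a*, *Klf12* and *Acot2* (0.94 to 0.97), *Timp2* to *Gosr2*, *Atp6ap1* and *Plbd2* (0.94 to 0.95), and *Timp3* to *Dynlt3*, *Lefty1* and *8430429K09Rik* (0.87 to 0.89). *Mmp11* was nearest to *Myh9*, *Bcl9l* and *Wdsub1* (0.97 to 0.98), *Mmp13* to *Pik3c2b*, *Lrrc8e* and *Chsy1* (0.93 to 0.94), and *Mmp9* to *Ercc8*, *Krt8* and *Mrpl50* (0.93 to 0.95).

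Between members, after the group means were subtracted, *Mmp2* and *Timp2* varied together (r = 0.84 over 12 libraries) and *Mmp9* varied against both (-0.84 with each). The male libraries numbered 3, low in *Mmp2* and *Timp2* and high in *Mmp9*, are among those points.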
